A study of Mus musculus with 16 samples.

Results

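Collagens are the main structural proteins of the extracellular matrix. Their chains, named α chains, wind around each other in groups and are then built into fibrils, sheet-like networks or anchoring structures, and each chain has its own gene. In the mammary gland, epithelial ducts rest on a basement membrane whose network is type IV collagen, while the fibrillar types I, III and V fill the stroma and are made mostly by fibroblasts. Types II, IX, X and XI are best known from cartilage, where types IX and XI assemble with type II fibrils. The genes described here are all those whose symbol has the form Col, a number, a and a number. They were measured by 68 probe sets that carry exactly 1 gene symbol, and where a gene had more than 1, the probe set with the highest average signal stood for it. This gave 42 collagen chain genes of 17097 genes in all.

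The RNA came from luminal cells of mouse mammary glands, separated by fluorescence-activated cell sorting, and was hybridised to 16 Affymetrix arrays, 4 in each of 4 groups. The p38α-lox PyMT group carried the floxed p38α allele, MMTV-Cre and MMTV-PyMT, the PyMT group carried MMTV-Cre and MMTV-PyMT, and both were aged 6 weeks. The p38α-lox group carried the floxed p38α allele and MMTV-Cre, the MMTV-Cre group carried MMTV-Cre alone, and both were aged 9 weeks. MMTV-Cre, which all 4 groups shared, places the Cre recombinase under the promoter of the mouse mammary tumour virus, active in mammary epithelium. MMTV-PyMT places the middle T antigen of polyomavirus, an oncogene, under the same promoter. Mice with PyMT were 3 weeks younger than mice without it, so an effect of PyMT and an effect of age cannot be told apart in any comparison below. The labels do not say that each array is a separate animal, so p-values measure the spread between these samples, which may be technical.

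All values are log2 signals, and a log2 difference of 1 is a change of 2-fold. A gene was tested when its mean over the 16 arrays reached 3.67, the 25th percentile among probe sets, and it was called when its adjusted p from limma was below 0.05 over the 14410 genes tested. Of the 42 collagen genes 37 were tested, and Col1a2, Col24a1, Col26a1, Col4a4 and Col6a5 lay below the filter. Mapk14, which encodes p38α, averaged 7.23 ± 0.103 in p38α-lox PyMT arrays and 7.20 ± 0.321 in PyMT arrays (SD, n = 4 each). It averaged 7.31 ± 0.862 in p38α-lox arrays and 6.53 ± 0.885 in MMTV-Cre arrays (SD, n = 4 each), so it was not lower in arrays labelled p38α-lox. The sources used here do not say where its probes lie relative to the floxed part. Replicate 2 of p38α-lox and replicate 4 of PyMT had the lowest median correlation with the other arrays (0.935 each), and the number of collagen genes called did not change in any comparison without them. The number of arrays limits the precision of every value.

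A minority of collagen genes were called higher with PyMT, all from the cartilage class and the basement membrane associated class. Estimates were above 0 for most collagen genes, 31 of the 37 tested, also in the other classes. The 4 largest differences belonged to Col9a1, Col11a1, Col17a1 and Col18a1. In the average over both PyMT comparisons, which sets 8 arrays against 8, 6 of the 37 tested collagen genes were called higher (16.2%) and 0 were called lower, against 3.67% of all tested genes called higher and 2.51% called lower. The 6 genes were Col9a1, Col11a1, Col2a1, Col17a1, Col18a1 and Col7a1, and the other 5 classes had 0 calls. At an unadjusted p below 0.05, 18 collagen genes were higher (48.6%) and 0 lower, against 19.7% of all tested genes in either direction. All 8 arrays with PyMT lay above all 8 without it for 4 collagen genes, Col9a1, Col11a1, Col17a1 and Col18a1, where 0.666% of all tested genes did so.

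Of the classes, the basement membrane associated chains had the highest median log2 difference (1.23 over 4 tested genes, 3 called), followed by the cartilage chains (0.81 over 7, 3 called). The type IV network chains had a median of 0.56 over 5 tested genes, the fibrillar chains 0.52 over 6, the beaded filament chains 0.42 over 4, the fibril associated chains 0.12 over 6, and the remaining network and transmembrane chains 0.03 over 5, each with 0 called. The median was 0.50 over the 37 tested collagen genes and 0.00 over all tested genes. Estimates were above 0 for 31 of the 37 collagen genes, against 50.1% of all tested genes.

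**Figure D1:**
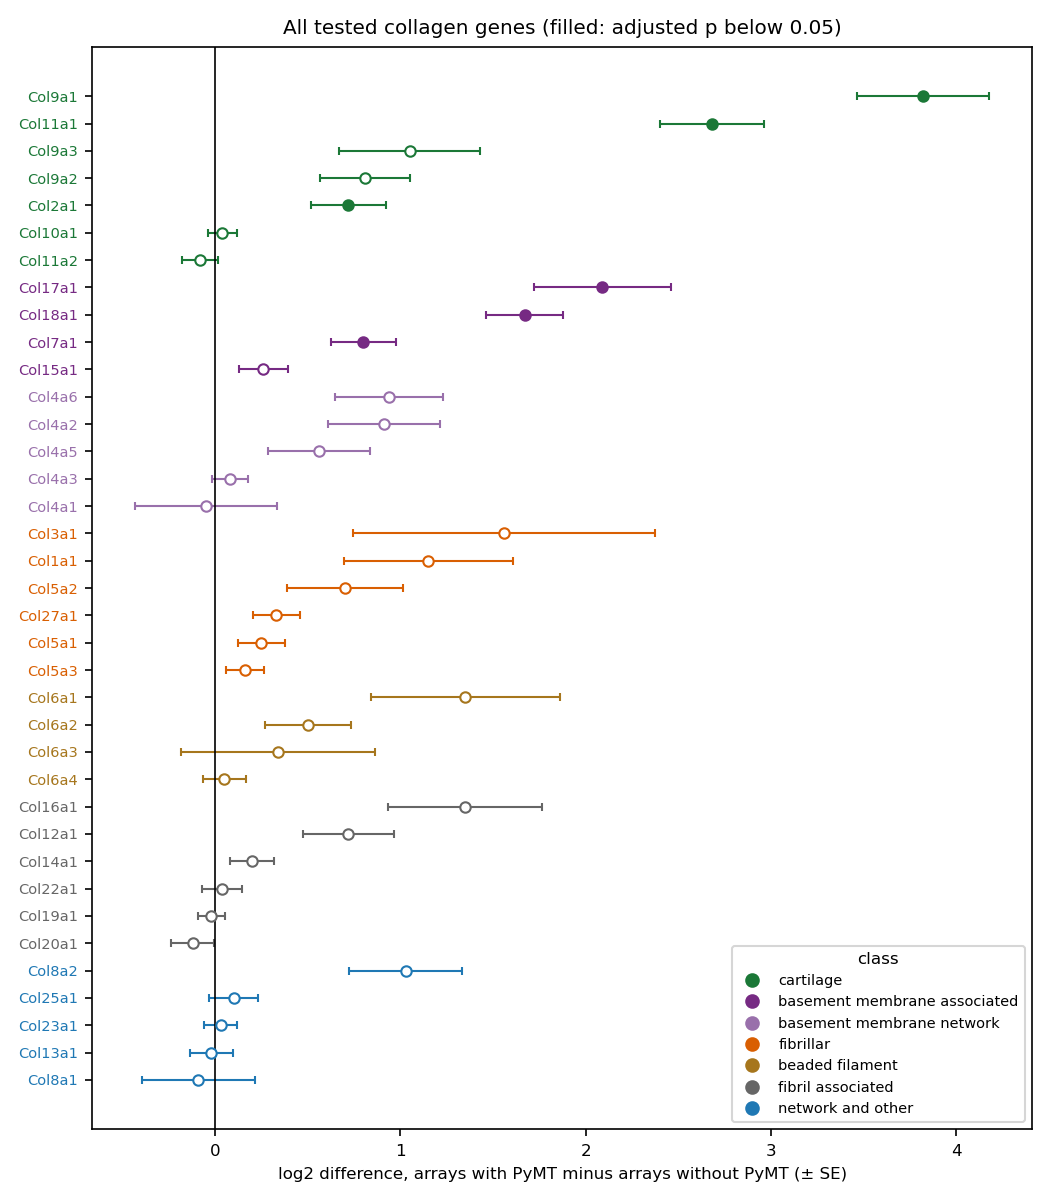
Log2 difference of each of the 37 tested collagen genes between arrays with PyMT and arrays without PyMT (8 against 8, x axis, ± SE), grouped by class. Filled points are the 6 genes with an adjusted p below 0.05, led by Col9a1 at 3.82, and 31 of the 37 points lie above 0.

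The promoters of the 3 genes called in both separate PyMT comparisons, Col9a1, Col11a1 and Col18a1, are shown because these genes carry the clearest difference. Each sequence is the 250 bases before a RefSeq transcription start in GRCm38.p6, and Col9a1 and Col18a1 each have 2 such starts. The RefSeq gene itself begins inside the first Col9a1 window, at 24177589, and inside the Col11a1 window, at 114030479. The last bases of these 2 windows thus lie within the annotated gene. Capitals mark matches, on either strand, to the GC box GGGCGG (reverse complement CCGCCC) and to the SOX core ACAANG (reverse complement CNTTGT). The TATA box TATAAA and the AP-1 site TGANTCA were searched as well.
Col9a1, first start, chr1:24177360-24177609, plus strand: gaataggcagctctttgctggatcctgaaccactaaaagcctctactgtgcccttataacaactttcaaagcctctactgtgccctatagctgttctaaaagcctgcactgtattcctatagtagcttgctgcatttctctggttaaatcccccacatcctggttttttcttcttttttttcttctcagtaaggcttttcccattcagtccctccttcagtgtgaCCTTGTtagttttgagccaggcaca
Col9a1, second start, chr1:24194953-24195202, plus strand: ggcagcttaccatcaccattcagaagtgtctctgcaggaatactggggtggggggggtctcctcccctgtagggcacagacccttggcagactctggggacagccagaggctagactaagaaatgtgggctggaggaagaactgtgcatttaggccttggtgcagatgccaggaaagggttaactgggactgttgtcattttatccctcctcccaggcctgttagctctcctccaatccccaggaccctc
Col11a1, chr3:114030290-114030539, plus strand: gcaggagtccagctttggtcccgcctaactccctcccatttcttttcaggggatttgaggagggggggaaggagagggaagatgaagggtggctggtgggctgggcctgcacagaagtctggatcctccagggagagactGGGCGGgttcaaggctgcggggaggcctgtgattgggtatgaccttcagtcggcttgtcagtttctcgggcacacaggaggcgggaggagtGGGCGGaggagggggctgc
Col18a1, first start, chr10:77166531-77166780, minus strand: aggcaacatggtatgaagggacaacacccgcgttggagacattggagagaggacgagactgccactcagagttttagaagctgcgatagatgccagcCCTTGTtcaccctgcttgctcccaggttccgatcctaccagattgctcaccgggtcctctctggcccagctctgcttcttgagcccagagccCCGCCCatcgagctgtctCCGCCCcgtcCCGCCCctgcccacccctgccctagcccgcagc
Col18a1, second start, chr10:77113706-77113955, minus strand: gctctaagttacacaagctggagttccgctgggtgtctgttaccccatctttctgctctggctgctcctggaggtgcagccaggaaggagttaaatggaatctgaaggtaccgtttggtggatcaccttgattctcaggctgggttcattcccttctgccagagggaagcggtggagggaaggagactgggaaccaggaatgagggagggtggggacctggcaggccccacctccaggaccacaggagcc

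None of these 5 windows held a match to TATAAA or TGANTCA, which 12.4% and 6.75% of all 32851 RefSeq promoter windows of this length held. The GC box was in the Col11a1 window (2 matches) and the first Col18a1 window (3 matches), against 32.7% of all windows. The SOX core was in the first Col9a1 window and the first Col18a1 window (1 match each), against 36.3% of all windows. The Col11a1 GC box nearest the window's end lies within the annotated gene. The Col9a1 SOX match spans the beginning of the annotated Col9a1 gene. No matches of different motifs overlapped in these windows. G and C made up 43.6% of the first Col9a1 window and 62.4% of the Col11a1 window, and no motif was found in all 5 windows. A match is a description of letters, and which start these cells used was not tested.

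Col9a1 encodes an α chain of type IX collagen, which sits on the surface of type II fibrils in cartilage. Its log2 signals were 9.40, 10.66, 10.39 and 9.87 in p38α-lox PyMT arrays and 10.49, 10.27, 10.32 and 9.78 in PyMT arrays. They were 5.71, 7.36, 6.56 and 7.12 in p38α-lox arrays and 6.84, 4.40, 7.04 and 5.60 in MMTV-Cre arrays. Every array with PyMT was at least 2 log2 units above every array without it, and the arrays without PyMT spread more widely (SD 1.01, n = 8) than those with it (SD 0.425, n = 8). The average PyMT log2 difference was 3.82 ± 0.357 (SE, adjusted p = 4.75e-05), a 14.1-fold change. Its second probe set, with a lower signal, gave a log2 difference of 2.04 in the same direction.

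Col11a1 encodes an α chain of type XI collagen, a minor fibrillar collagen that joins type II fibrils and sets their diameter. Its log2 signals were 6.31, 7.51, 7.53 and 6.05 in p38α-lox PyMT arrays and 7.87, 7.08, 8.47 and 6.87 in PyMT arrays. They were 4.06, 4.99, 4.38 and 4.11 in p38α-lox arrays and 5.10, 4.14, 4.83 and 4.64 in MMTV-Cre arrays. The groups with and without PyMT did not overlap, and the average log2 difference was 2.68 ± 0.282 (SE, adjusted p = 0.00013), a 6.41-fold change. Its mean without PyMT was 4.53, below the array medians (4.63 to 4.88), so its level there and the fold may not be resolved. A second Col11a1 probe set averaged 2.98, below the filter, and differed by 0.35.

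Col18a1 encodes the core protein of a heparan sulfate proteoglycan of basement membranes, from whose end endostatin is released. Its log2 signals were 7.02, 7.62, 7.55 and 6.49 in p38α-lox PyMT arrays and 7.40, 6.94, 7.32 and 6.96 in PyMT arrays. They were 4.99, 6.38, 5.36 and 5.41 in p38α-lox arrays and 5.50, 5.28, 5.18 and 5.87 in MMTV-Cre arrays. The groups came closest between replicate 4 of p38α-lox PyMT and replicate 2 of p38α-lox but did not overlap. The average log2 difference was 1.67 ± 0.207 (SE, adjusted p = 0.000456), a 3.18-fold change, and a second probe set gave 0.94.

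Col17a1 encodes a transmembrane collagen of hemidesmosomes, the junctions that tie basal epithelial cells to the basement membrane. Its log2 signals were 5.69, 7.35, 7.97 and 6.16 in p38α-lox PyMT arrays and 7.71, 5.62, 7.54 and 5.99 in PyMT arrays. They were 4.33, 4.60, 4.53 and 5.34 in p38α-lox arrays and 4.36, 4.45, 4.36 and 5.31 in MMTV-Cre arrays. Each group with PyMT held 2 arrays above 7 and 2 nearer 6, and 1 array in each group without PyMT was above 5. The average log2 difference was 2.09 ± 0.371 (SE, adjusted p = 0.00462). Its mean without PyMT was 4.66, within the range of the array medians (4.63 to 4.88), so its level there may not be resolved.

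Col7a1, which encodes the collagen of anchoring fibrils below the basement membrane, had log2 signals of 5.33, 6.10, 6.43 and 5.18 in p38α-lox PyMT arrays and 5.90, 5.38, 5.97 and 5.93 in PyMT arrays. It had 4.96, 5.47, 4.95 and 4.79 in p38α-lox arrays and 4.97, 5.03, 4.87 and 4.78 in MMTV-Cre arrays. Replicate 2 of p38α-lox, at 5.47, lay above 3 of the arrays with PyMT, and the average log2 difference was 0.80 ± 0.176 (SE, adjusted p = 0.0155).

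Col2a1 encodes the chain of type II collagen, the main fibril of cartilage. Its log2 signals were 5.14, 5.78, 5.92 and 5.62 in p38α-lox PyMT arrays and 6.62, 5.43, 7.01 and 6.53 in PyMT arrays. They were 5.05, 5.82, 5.27 and 4.94 in p38α-lox arrays and 5.28, 5.29, 5.35 and 5.28 in MMTV-Cre arrays. The groups overlapped, and 3 of the PyMT arrays were above all others. The average log2 difference was 0.72 ± 0.201 (SE, adjusted p = 0.046), and this call was lost in 17 of 26 alternative settings. Taken apart, the difference was 1.10 ± 0.284 in PyMT minus MMTV-Cre and 0.34 ± 0.284 in p38α-lox PyMT minus p38α-lox. Neither was called (limma, adjusted p = 0.0751 and 0.709).

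**Figure D2:**
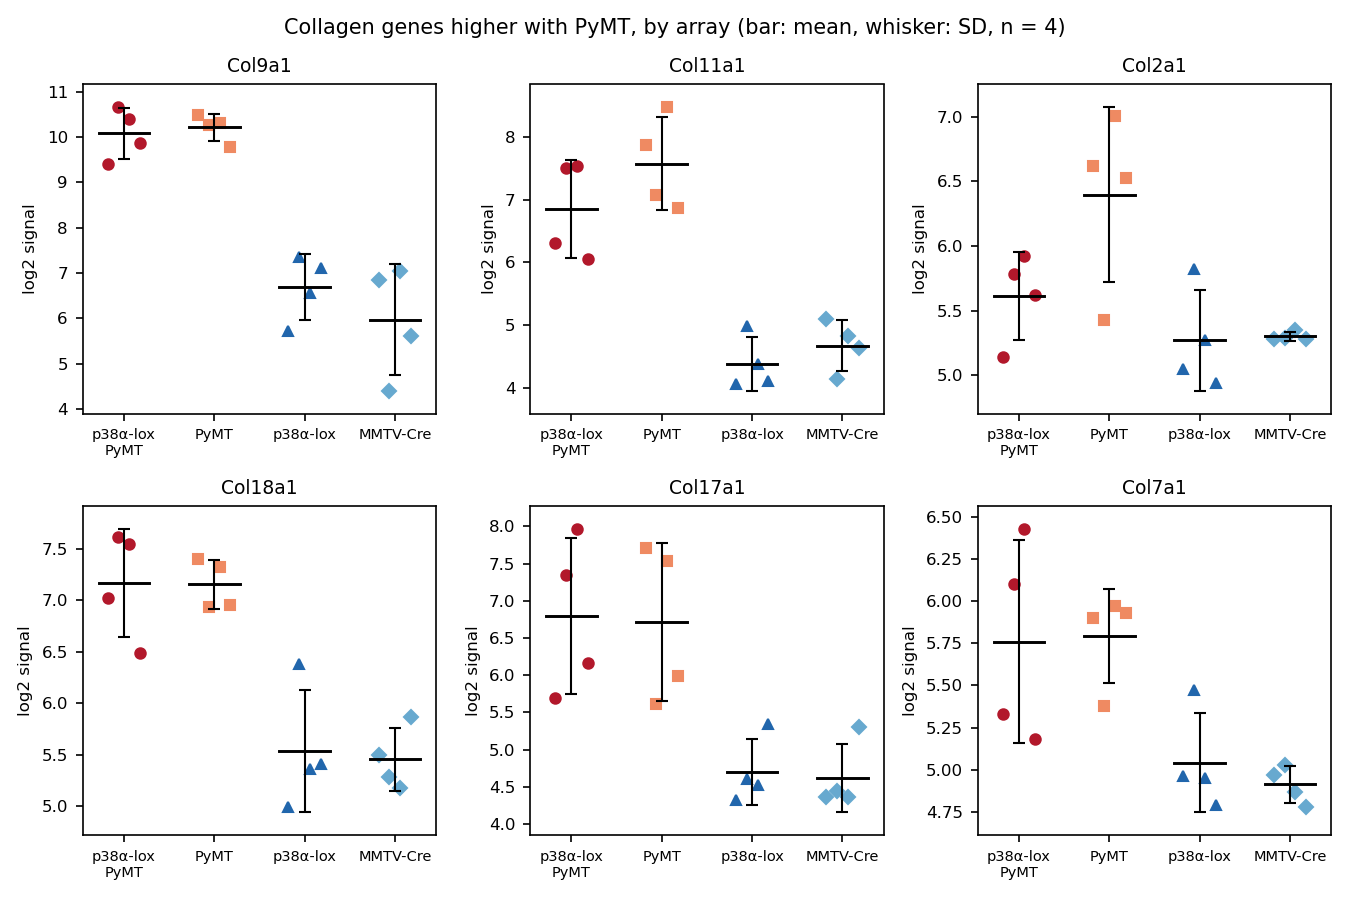
Log2 signal (y axis) of the 6 collagen genes called higher with PyMT, with 1 point for each array in the groups p38α-lox PyMT, PyMT, p38α-lox and MMTV-Cre; bars are means and whiskers SDs of 4 arrays. Col9a1, Col11a1, Col17a1 and Col18a1 show no overlap between arrays with and without PyMT, whereas Col2a1 and Col7a1 do.

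The separate comparisons asked whether PyMT had these differences without and with the floxed allele, and they share no arrays. In PyMT minus MMTV-Cre, 3 of the 37 tested collagen genes were called higher (8.11%) and 0 lower, against 0.881% of all tested genes higher and 0.382% lower. In p38α-lox PyMT minus p38α-lox, 3 were called higher (8.11%) and 0 lower, against 0.548% higher and 0.229% lower. Both comparisons called Col9a1, Col11a1 and Col18a1. When limma was given only the arrays compared, Col18a1 was not called in p38α-lox PyMT minus p38α-lox (adjusted p = 0.0617). At an unadjusted p below 0.05, 15 collagen genes were higher in PyMT minus MMTV-Cre (40.5%, against 13.8% of all tested genes in either direction), and 8 were higher in p38α-lox PyMT minus p38α-lox (21.6%, against 12.2%). Estimates were above 0 for 34 and 29 of the 37 collagen genes in these comparisons, against 55.0% and 46.5% of all tested genes. All 4 PyMT arrays lay above all 4 MMTV-Cre arrays for 7 collagen genes and below for 0, against 4.44% and 2.65% of all tested genes. All 4 p38α-lox PyMT arrays lay above all 4 p38α-lox arrays for 5 collagen genes and below for 0, against 4.41% and 3.75% of all tested genes. For Col9a1 the log2 difference was 4.24 ± 0.504 in PyMT minus MMTV-Cre (adjusted p = 0.0018), and 3.39 ± 0.504 in p38α-lox PyMT minus p38α-lox (adjusted p = 0.00689). For Col11a1 it was 2.89 ± 0.399 (adjusted p = 0.00395) in PyMT minus MMTV-Cre, and 2.47 ± 0.399 (adjusted p = 0.0116) in p38α-lox PyMT minus p38α-lox. For Col18a1 it was 1.70 ± 0.293 (adjusted p = 0.0131) in PyMT minus MMTV-Cre, and 1.64 ± 0.293 (adjusted p = 0.0193) in p38α-lox PyMT minus p38α-lox. Col17a1 had estimates of 2.10 and 2.09 in the same comparisons, with adjusted p of 0.0702 and 0.081.

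Leaving out single arrays moved these counts. In PyMT minus MMTV-Cre the count was 7 without replicate 2 of PyMT, with Col17a1, Col2a1, Col7a1 and Col8a2 added, and 2 without replicate 1 of PyMT, where Col18a1 had an adjusted p of 0.0526. In p38α-lox PyMT minus p38α-lox it was 1 without replicate 2 or replicate 3 of p38α-lox PyMT, where Col9a1 alone was called. In the same comparison it was 2 without replicate 1 or replicate 3 of p38α-lox and 4 without replicate 1 of p38α-lox PyMT. In the average the count was 11 without replicate 2 of PyMT and 9 without replicate 1 of p38α-lox PyMT.

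The sample titles carry numbers that form 2 ranges, with 9 arrays in the lower and 7 in the higher, and the sources used here do not say what they mean. The average PyMT log2 difference of Col9a1 was 4.03 in the lower range and 3.65 in the higher. For Col11a1 it was 2.52 and 3.14 in these ranges, for Col17a1 2.04 and 2.42, and for Col18a1 1.68 and 1.72. For Col7a1 it was 0.62 and 1.04, and for Col2a1 0.47 and 1.18. The differences of all 6 genes were thus positive within both ranges. With the title range as a block in the model all 6 kept their calls and 8 collagen genes were called, with Col12a1 and Col8a2 added. Col9a1 then differed by 3.86 ± 0.363 (adjusted p = 9.31e-05) and Col2a1 by 0.74 ± 0.205 (adjusted p = 0.0428).

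Beside Col9a1, Col11a1 and Col2a1, the cartilage class holds Col9a2 and Col9a3, which encode the other chains of type IX, Col11a2, a further type XI chain, and Col10a1, the collagen of hypertrophic cartilage. Col9a2 had log2 signals of 4.95, 6.65, 5.98 and 5.35 in p38α-lox PyMT arrays and 5.95, 5.04, 6.02 and 4.99 in PyMT arrays, against 4.69, 4.96, 4.91 and 4.80 in p38α-lox arrays and 5.37, 4.31, 4.86 and 4.59 in MMTV-Cre arrays. The groups overlapped, and its average log2 difference of 0.81 ± 0.242 was not called (adjusted p = 0.0628). Col9a3 averaged 8.72 ± 0.755 in arrays with PyMT and 7.67 ± 0.807 in arrays without it (SD, n = 8 each), a log2 difference of 1.05 ± 0.379 that was not called (adjusted p = 0.123). A second Col9a3 probe set gave 2.31. Col10a1 averaged 4.74 with PyMT and 4.70 without it, and Col11a2 4.38 with PyMT and 4.46 without it, and neither was called. The 3 type IX genes thus all had positive estimates, of which Col9a1 alone was called.

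Chondrocyte markers are given beside the cartilage collagens by their levels. Of 9 such markers outside the collagens, 7 were tested, with 3 estimates above 0 and 4 below, and 0 were called, a count that the shares over all genes (3.67% higher, 2.51% lower) would also give for so few genes. The list mean was 5.55 in arrays with PyMT (range 5.31 to 5.76) and 5.64 in arrays without it (range 5.29 to 5.95). Acan, the main cartilage proteoglycan, averaged 4.44 in both, and Sox9, a transcription factor that drives Col2a1 in cartilage, averaged 9.75 with PyMT and 10.17 without it (adjusted p = 0.351). The means of Acan and of the list members Comp and Matn3 lay below the array medians (4.63 to 4.88) in each group. Differences of these genes may thus not be resolved. Matn1 and Hapln1, 2 other cartilage matrix markers, lay below the filter.

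Part of the basal and myoepithelial marker list was higher in arrays with PyMT, beside the collagen differences. Of 10 tested markers 5 were called higher, against 3.67% of all tested genes, namely Trp63 (log2 difference 1.99), Krt14 (2.51), Krt5 (2.59), Cdh3 (0.65) and Mylk (1.61). The other 5 were not called, among them Acta2 (1.33 ± 0.455) and Oxtr (−0.25 ± 0.142). The list mean was 7.09 in arrays with PyMT (range 6.60 to 7.43) and 6.01 in arrays without it (range 5.13 to 6.93). With this mean as a covariate, an alternative chosen after seeing the data, 2 collagen genes were called in the average. These were Col9a1 (log2 difference 3.41 ± 0.551, adjusted p = 0.013) and Col11a1 (2.22 ± 0.42, adjusted p = 0.0267). Col18a1 then had a difference of 1.21 ± 0.288 (adjusted p = 0.0593), Col17a1 0.98 ± 0.445 (adjusted p = 0.369), Col7a1 0.66 (adjusted p = 0.32) and Col2a1 0.53 (adjusted p = 0.543). In the separate comparisons, the covariate left 1 call in PyMT minus MMTV-Cre, Col9a1, and 0 in p38α-lox PyMT minus p38α-lox. In bulk RNA a change in the share of a cell type and a change in RNA per cell cannot be told apart.

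The lists of the other cell types were short, and their counts stand beside 3.67% of all tested genes called higher and 2.51% called lower. Of 13 tested luminal markers 1 was called, Cldn3, lower by 0.84 on the log2 scale in arrays with PyMT, and the list mean was 9.31 with PyMT and 9.56 without it. Of 8 tested fibroblast markers 1 was called, Fbln1 (log2 difference 0.81), and 4 of the 8 were higher at an unadjusted p below 0.05, against 19.7% of all tested genes in either direction. Postn, a matrix protein of fibroblasts, averaged 7.85 with PyMT and 6.18 without it (log2 difference 1.67 ± 0.483, adjusted p = 0.0534). Dcn, a small proteoglycan that binds collagen fibrils, averaged 6.68 with PyMT and 7.30 without it (adjusted p = 0.705), with single arrays as high as 9.03 in p38α-lox PyMT and 9.82 in MMTV-Cre. The fibroblast list mean was 5.99 with PyMT (range 5.49 to 6.54) and 5.68 without it (range 5.24 to 5.89). On average over the 16 arrays Pdgfra, Lum, Dpt, Fap and Fbln2 lay below the filter. Endothelial markers had 0 of 12 called, with list means of 4.84 with PyMT and 4.82 without it, both within the range of the array medians (4.63 to 4.88). Pericyte markers had 0 of 6 called, adipocyte markers 0 of 3 and Schwann cell markers 0 of 4, and of 6 immune markers 1 was called, Cd68 (log2 difference 1.75). The part that any cell type has in the collagen differences was not tested. The covariate above cannot show it, because the basal list mean itself differed between arrays with and without PyMT.

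**Figure D3:**
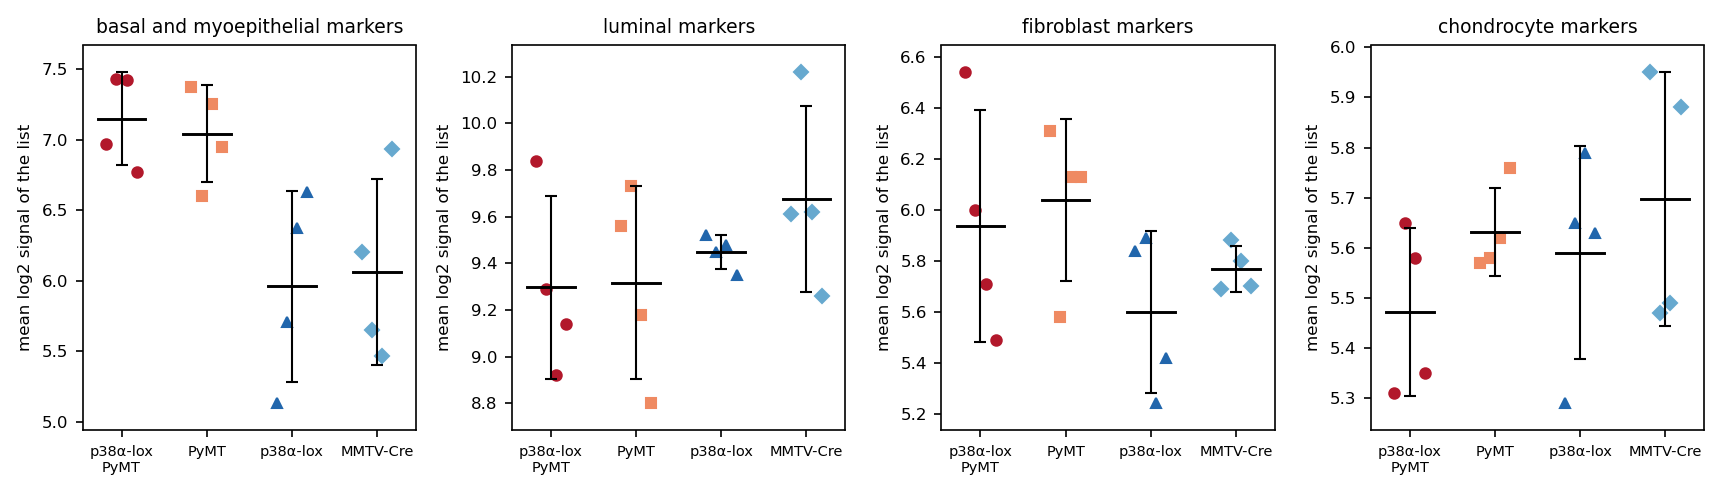
Mean log2 signal of each marker list (y axis) in every array, by group from p38α-lox PyMT to MMTV-Cre; bars are means and whiskers SDs of 4 arrays. The basal and myoepithelial mean is higher with PyMT (7.09 against 6.01), while the chondrocyte mean is 5.55 with PyMT and 5.64 without it. Of the chondrocyte markers, Acan, Comp and Matn3 averaged below the array medians (4.63 to 4.88).

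The type IV genes form the network of the basement membrane, and none of the 5 tested was called with PyMT. Col4a1 and Col4a2 encode the chains of the form found in nearly all basement membranes. Col4a1 had log2 signals of 8.35, 8.49, 7.31 and 6.31 in p38α-lox PyMT arrays, 8.19, 7.36, 6.90 and 7.45 in PyMT arrays, 8.24, 8.33, 7.35 and 7.78 in p38α-lox arrays and 8.60, 6.02, 6.70 and 7.70 in MMTV-Cre arrays. Each of the 4 groups overlapped the others, and the average log2 difference was −0.05 ± 0.382 (adjusted p = 0.971), with 0.25 for a second probe set. Col4a2 had log2 signals of 6.59, 6.99, 6.78 and 5.50 in p38α-lox PyMT arrays, 6.75, 5.67, 6.15 and 6.97 in PyMT arrays, 4.87, 5.66, 5.65 and 6.05 in p38α-lox arrays and 6.10, 4.56, 4.98 and 6.28 in MMTV-Cre arrays. Its average log2 difference of 0.91 ± 0.303 was not called (adjusted p = 0.0929), and it was 1.33 and 0.40 within the lower and the higher title range. With the basal marker mean as a covariate it was −0.15 ± 0.309.

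Col4a5 and Col4a6, whose chains assemble together in epithelial basement membranes, had average log2 differences of 0.56 ± 0.275 (adjusted p = 0.289) and 0.94 ± 0.291 (adjusted p = 0.0707). Col4a6 averaged 7.10 ± 0.754 in arrays with PyMT and 6.17 ± 0.357 in arrays without it (SD, n = 8 each), and second probe sets gave 1.29 for Col4a5 and 1.25 for Col4a6. When all probe sets of a gene were averaged, both were called. Col4a3 differed by 0.08 and Col4a4 lay below the filter. Col15a1, which encodes a proteoglycan of the basement membrane zone related to type XVIII, differed by 0.26 ± 0.133 (adjusted p = 0.304).

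The fibrillar class as listed here had 8 genes, of which 6 were tested and 0 were called with PyMT, although all 6 estimates were above 0. Types II and XI, which also form fibrils, are counted in the cartilage class, where Col2a1 and Col11a1 were called. Col1a1, which encodes the main chain of type I collagen, had log2 signals of 6.94, 7.30, 6.06 and 5.43 in p38α-lox PyMT arrays, 7.88, 5.25, 7.68 and 6.85 in PyMT arrays, 4.58, 5.72, 5.29 and 5.15 in p38α-lox arrays and 7.77, 5.03, 5.15 and 5.53 in MMTV-Cre arrays. Replicate 1 of MMTV-Cre was among the highest of the 16, and the average PyMT difference was 1.15 ± 0.455 (adjusted p = 0.163). Without that array it was 1.46 ± 0.382 and was called (adjusted p = 0.0452). Col1a2, the second type I chain, was read by 1 listed probe set and lay between 3.28 and 3.36 in p38α-lox PyMT arrays, 3.32 and 3.44 in PyMT arrays, 3.29 and 3.46 in p38α-lox arrays, and 3.28 and 3.52 in MMTV-Cre arrays. Every array lay below the filter's value, so its difference was not tested. The sources used here do not say which part of the transcript this probe set reads, so its low signal need not mean absent RNA.

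Col3a1, which encodes type III collagen of stroma and vessel walls, had log2 signals of 8.58, 8.46, 5.32 and 4.23 in p38α-lox PyMT arrays and 8.55, 5.02, 9.10 and 7.58 in PyMT arrays. It had 4.24, 4.72, 5.20 and 5.83 in p38α-lox arrays and 9.02, 4.38, 4.80 and 6.16 in MMTV-Cre arrays. Arrays of the same group differed by up to 4.64 log2 units in MMTV-Cre and 4.35 in p38α-lox PyMT, and the average PyMT difference of 1.56 ± 0.813 was within this spread (adjusted p = 0.319). With the basal marker mean as a covariate it was −0.29 ± 1.12. A second Col3a1 probe set averaged 2.79, below the filter, and differed by 0.04 with PyMT. The other fibrillar estimates ran from 0.16 for Col5a3 to 0.70 ± 0.313 for Col5a2 (adjusted p = 0.222), both chains of type V collagen, which sets fibril diameter.

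Col1a1 and Col3a1 varied together from array to array. As deviations from the group means over 16 arrays, Pearson's r was 0.924 and Spearman's rho 0.906 (permutation test within groups with 100000 resamples, two-sided, adjusted p = 0.00128 and 0.00132 over 4 relations). Without the 2 arrays farthest from the median, r was 0.878. For Col1a1 against the mean of the fibroblast markers, r was 0.442 and rho 0.40 (adjusted permutation p = 0.112 and 0.152). For Col4a1 against Col4a2, r was 0.678 and rho 0.697 (adjusted permutation p = 0.0532 and 0.0385), and r was 0.55 without the 2 farthest arrays. For Col4a1 against the mean of the endothelial markers, r was 0.276 and rho 0.406 (adjusted permutation p = 0.323 and 0.152). That list mean was 4.84 with PyMT and 4.82 without it, within the range of the array medians (4.63 to 4.88). A relation with endothelial signal may thus not be resolved here. The points of each relation are signals from the same array and so share its RNA and normalisation.

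**Figure D4:**
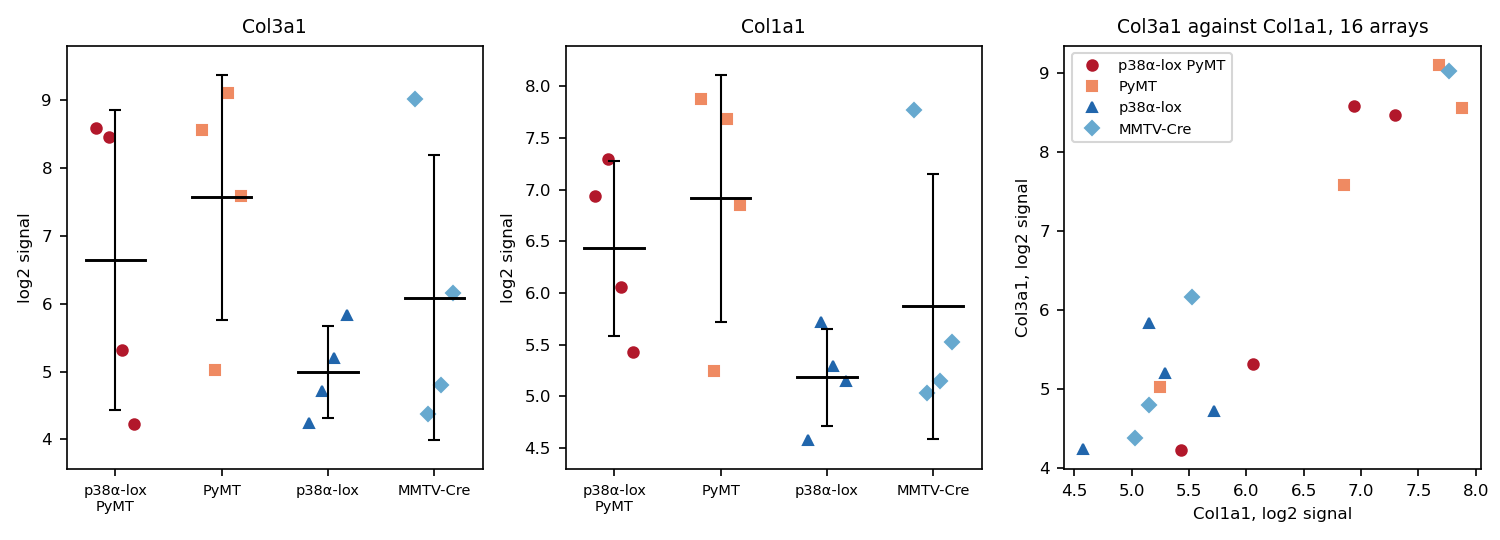
Log2 signal of Col3a1 and Col1a1 in each array by group (bars are means, whiskers SDs of 4 arrays), and Col3a1 against Col1a1 over the 16 arrays. Arrays of 1 group differ by over 4 log2 units in Col3a1, and arrays high in one gene are high in the other (r = 0.924 after removing group means).

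In the remaining classes 0 genes were called with PyMT. The beaded filament genes encode type VI collagen, whose microfibrils lie next to basement membranes. Col6a1 averaged 6.43 ± 1.32 in arrays with PyMT and 5.09 ± 0.859 in arrays without it (SD, n = 8 each), with a difference of 1.35 ± 0.509 (adjusted p = 0.142), and Col6a2 differed by 0.50 ± 0.232 (adjusted p = 0.248). Col6a3 had log2 signals of 7.50, 4.36, 4.38 and 4.34 in p38α-lox PyMT arrays, 5.65, 4.51, 4.91 and 3.84 in PyMT arrays, 3.75, 4.38, 3.39 and 3.46 in p38α-lox arrays and 4.61, 6.07, 7.17 and 3.97 in MMTV-Cre arrays. Its high arrays were thus replicate 1 of p38α-lox PyMT and replicates 2 and 3 of MMTV-Cre, and it differed by 0.34 ± 0.523 with PyMT. Col6a4 differed by 0.05.

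Among fibril associated chains, which bind to the surface of fibrils, Col16a1 averaged 8.37 ± 0.881 with PyMT and 7.02 ± 0.819 without it (SD, n = 8 each). Its difference of 1.35 ± 0.416 (adjusted p = 0.0691) and that of Col12a1 (0.72 ± 0.246, adjusted p = 0.102) were not called, and the other 4 genes of the class differed by less. Col20a1 had the smallest p among the negative estimates, with log2 signals of 3.75, 3.72, 3.76 and 3.80 in p38α-lox PyMT arrays, 3.85, 3.73, 3.98 and 4.32 in PyMT arrays, 3.89, 4.51, 4.08 and 3.77 in p38α-lox arrays and 3.70, 3.88, 4.01 and 4.02 in MMTV-Cre arrays. These values overlapped between groups and lay near the filter. Col8a2, one of the chains of the hexagonal type VIII network, averaged 4.70 ± 0.974 with PyMT and 3.67 ± 0.142 without it (SD, n = 8 each), a difference of 1.03 ± 0.305 (adjusted p = 0.0576). Its mean without PyMT lay at the filter itself, so its level there may not be resolved.

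Genes that make, bind or remodel collagen were counted in the average PyMT comparison as well, where 3.67% of all tested genes were called higher and 2.51% lower. Of 24 tested genes of procollagen processing 1 was called higher (4.17%), a share near that of all genes. It was P3h2, a prolyl 3-hydroxylase (log2 difference 0.81 ± 0.218, adjusted p = 0.0385), and the lysyl hydroxylases Plod1 and Plod2 had 0.94 ± 0.289 and 0.97 ± 0.334 (adjusted p = 0.0691 and 0.105). Of 7 collagen receptors 1 was called lower, Itga2, the α2 integrin, which fell by 0.81 on the log2 scale (adjusted p = 0.0482). Of 12 laminins and other basement membrane partners 2 were called higher, Lamb3, a chain of the laminin of hemidesmosomes (1.43 ± 0.258, adjusted p = 0.0051), and Sparc, a collagen-binding protein (2.33 ± 0.504, adjusted p = 0.0146). Of 13 matrix proteases and their inhibitors 2 were called higher, the inhibitor Timp3 (1.45 ± 0.268, adjusted p = 0.00591) and Mmp2, a protease that degrades type IV collagen (1.51 ± 0.378, adjusted p = 0.0284).

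Arrays labelled with the floxed p38α allele were compared with their controls, without and with PyMT, to ask how collagen genes differ between these labels. By limma, 0 of the 37 tested collagen genes were called in p38α-lox minus MMTV-Cre, and 0 in p38α-lox PyMT minus PyMT, as for all genes, of which 0% were called in either direction. At an unadjusted p below 0.05 there were 2 collagen genes in each comparison (5.41%), against 4.79% of all tested genes without PyMT and 3.58% with it. With arrayWeights the count of collagen genes called was also 0 in both. Since Mapk14 was not lower in arrays labelled p38α-lox, the directions below refer to the labels.

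In p38α-lox minus MMTV-Cre, the smallest p belonged to Col6a3, whose values are given above, with a difference of −1.71 ± 0.739 (adjusted p = 0.993). All 4 p38α-lox arrays were at 4.38 or below, and 2 of the 4 MMTV-Cre arrays were above 6. Col8a1, a type VIII chain, followed with −0.95 ± 0.431 (adjusted p = 0.999), with log2 signals of 6.20, 6.21, 5.97 and 6.13 in p38α-lox arrays and 6.65, 8.94, 6.54 and 6.18 in MMTV-Cre arrays. It had 6.66, 6.56, 6.03 and 6.72 in p38α-lox PyMT arrays and 6.63, 6.39, 6.26 and 6.84 in PyMT arrays, so 1 MMTV-Cre array stood above the other 15. Among the positive estimates Col9a1 had the smallest p, with 0.72 ± 0.504 (adjusted p = 0.999). Col19a1, a fibril associated chain, averaged 3.96 ± 0.106 in p38α-lox arrays and 4.15 ± 0.0679 in MMTV-Cre arrays (SD, n = 4 each). It was the 1 collagen gene whose p38α-lox arrays all lay below the MMTV-Cre arrays, against 1.17% of all tested genes, and 0 lay above, against 0.930%. The highest p38α-lox value and the lowest MMTV-Cre value of Col19a1 both round to 4.05. Both group means lay below the array medians (4.63 to 4.88). Other Col19a1 probe sets, below the filter, differed by 0.06 and 0.02, in the opposite direction.

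In p38α-lox PyMT minus PyMT, Col2a1 had the smallest p, with a difference of −0.78 ± 0.284 (adjusted p = 0.999). Next was Col5a3, a type V chain, with log2 signals of 4.09, 3.95, 3.67 and 4.01 in p38α-lox PyMT arrays and 4.43, 4.08, 4.49 and 4.30 in PyMT arrays. It had 3.94, 4.31, 3.90 and 3.72 in p38α-lox arrays and 3.94, 3.95, 3.87 and 4.12 in MMTV-Cre arrays. The groups with PyMT overlapped by 1 array each, and the difference was −0.40 ± 0.146 (adjusted p = 0.999). Among the positive estimates Col9a2 had the smallest p, with 0.23 ± 0.343, and Col6a3 the largest value, 0.42 ± 0.739. Col25a1, a transmembrane collagen, averaged 5.31 ± 0.079 in p38α-lox PyMT arrays and 5.66 ± 0.18 in PyMT arrays (SD, n = 4 each) and was the 1 collagen gene lower without overlap, against 1.89% of all tested genes, while 0 were higher without overlap, against 0.659%.

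All 6 tested fibrillar genes had estimates below 0 in p38α-lox PyMT minus PyMT, with a median of −0.44, and 27 of the 37 collagen genes did, with a median of −0.13. Estimates were above 0 for 41.8% of all tested genes there, with a median of −0.04. Col3a1 differed by −0.91 ± 1.15 and Col1a1 by −0.48 ± 0.643, both within the spread of the arrays. Within the lower and the higher title range Col3a1 differed by 1.47 and −4.32 and Col1a1 by 0.46 and −1.94. The PyMT group has 3 arrays in the lower range and 1 in the higher. The values of the higher range thus rest on that 1 array, and no change of direction between ranges can be read from them. Without PyMT the fibrillar median was −0.05, with 5 of 6 estimates below 0, and Col3a1 differed by −2.22 and 0.04 within the ranges.

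The interaction asked whether the p38α-lox difference itself differed between glands with and without PyMT. It called 0 collagen genes and 0 of all tested genes by limma, with 0 collagen genes at an unadjusted p below 0.05, against 2.82% of all tested genes. Its estimates were above 0 for 10 of the 37 collagen genes, against 44.8% of all tested genes. The smallest p was that of Col6a3, with 2.13 ± 1.05 (adjusted p = 0.992), and among negative estimates that of Col5a3, with −0.39 ± 0.206 (adjusted p = 0.992). For the 3 collagen genes called in both PyMT comparisons, the interaction was −0.85 ± 0.713 for Col9a1, −0.43 ± 0.564 for Col11a1 and −0.06 ± 0.414 for Col18a1. In the average over both p38α-lox comparisons 0 collagen genes were called, and 0 had an unadjusted p below 0.05, against 5.17% of all tested genes. Estimates were above 0 for 13 of the 37, against 44.7% of all tested genes. There Col4a1 had the smallest p among positive estimates (0.40 ± 0.382).

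**Figure D5:**
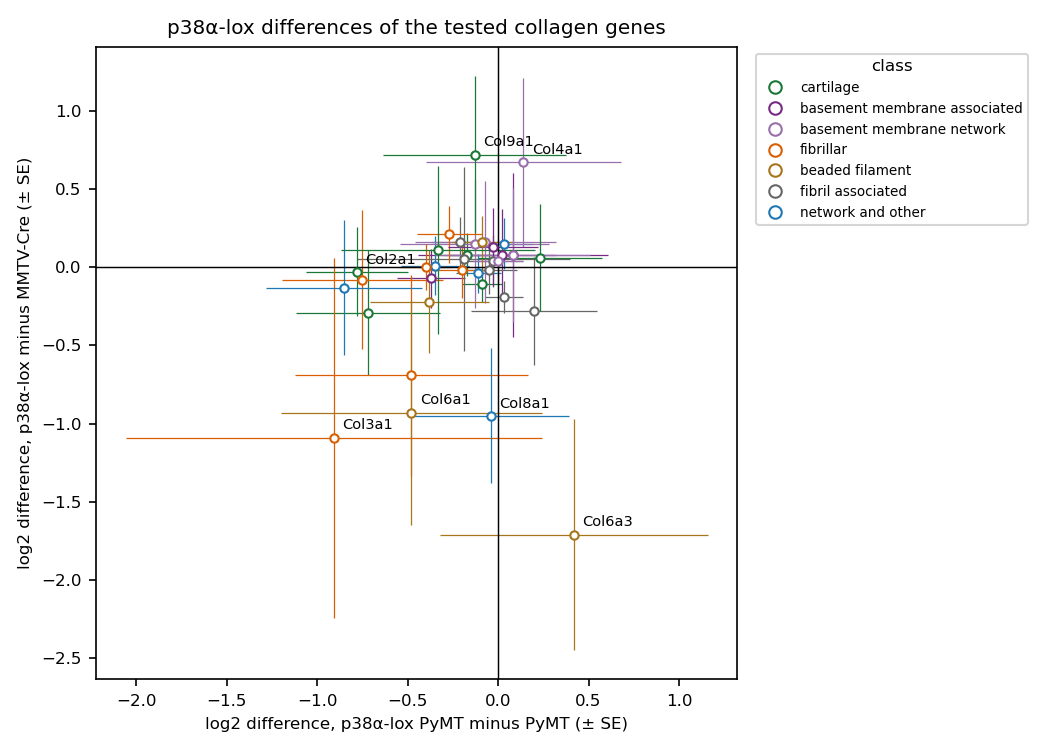
Log2 difference of the 37 tested collagen genes (± SE) in p38α-lox PyMT minus PyMT (x axis) and in p38α-lox minus MMTV-Cre (y axis), coloured by class. No point is filled because 0 genes were called, and Col6a3 lies farthest from 0 on the y axis at −1.71.

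Of the genes around collagen, 0 were called in either p38α-lox comparison. Among the 24 tested genes of procollagen processing, Plod3 and Plod1, which hydroxylate collagen lysines, differed by −0.73 ± 0.201 and −1.40 ± 0.408 in p38α-lox minus MMTV-Cre (adjusted p = 0.687 and 0.712). Their p38α-lox arrays all lay below the MMTV-Cre arrays, as for 1.17% of all tested genes, and Plod1 averaged 5.37 in p38α-lox arrays and 6.77 in MMTV-Cre arrays. With PyMT, Plod1 differed by −0.70 ± 0.408 (adjusted p = 0.999). Mmp14, a membrane-bound protease that cleaves fibrillar collagen, averaged 7.47 in p38α-lox arrays and 8.47 in MMTV-Cre arrays, also without overlap (adjusted p = 0.999). The inhibitor Timp1 averaged 6.95 in p38α-lox PyMT arrays and 7.58 in PyMT arrays, without overlap, as for 1.89% of all tested genes lower there (adjusted p = 0.999). For the receptors the smallest p belonged to Mrc2 without PyMT (0.23 ± 0.153) and Itgb1 with it (0.34 ± 0.264), and for the laminins to Lamb2 (−0.33 ± 0.202) and Lama3 (0.60 ± 0.356).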

How the data were processed

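The deposited values are log2 signals for 45141 probe sets on 16 arrays. The authors made them with RMA, per the submitters' processing notes, which as used here give no version or settings. RMA quantile-normalises arrays, so total RNA cannot be compared. Array medians lay between 4.63 and 4.88, and correlations between arrays between 0.885 and 0.990.

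Groups came from the genotype labels. Of 29449 annotated probe sets, 28898 carried 1 gene symbol and were used, 551 carried several and were left out, and 15692 others had no name here. Of the 28898, 28689 matched RefSeq (GRCm38.p6) by Entrez gene ID, which changed 0 symbols. RefSeq lists 44 collagen symbols; Col28a1 and Col6a6 are not in the probe annotation used here.

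Tests used limma 3.58.1 in R 4.3.3 with 1 model of 4 group means over all 16 arrays (12 residual and 2.83 prior degrees of freedom), moderated two-sided contrasts and Benjamini-Hochberg adjustment over all tested genes. Errors after ± are SE for differences and SD for means. Correlations used Python 3.11.15 and scipy 1.17.1. The fits were tested on simulated data. Alternatives were other filters, probe set averaging, eBayes options, normalisations, arrayWeights, fewer arrays, the title range as a block, and 2 chosen after seeing the data (without the arrays of lowest correlation; the basal marker mean as a covariate).

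Collagen genes, classes and lists were chosen with earlier results of these data known. Named array by array were Col1a1, Col1a2, Col3a1, Col4a1, Col4a2, each collagen gene called in any contrast and the gene with the smallest p in each direction of each contrast, and from other lists up to 3 genes with the smallest p per contrast. Plod2 and the genes singled out for not overlapping (Col19a1, Col25a1) were named after their values were seen. Cell type markers were not held to the limit of 3 genes. Those called in the average PyMT comparison were named, and others such as Dcn, Acta2 and Oxtr were chosen without this rule.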

Additional observations from a re-analysis of the deposited data

Results flagged for a closer look

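Of 64 groups of 4 arrays, over the 16 collagen genes given array by array, 5 held an array whose gap to its nearest neighbour was a larger share of the group's range than Dixon's 95% value allows. Chance alone gives about 1 in 20 such groups. For Col6a3, replicate 1 of p38α-lox PyMT was at 7.50 while the other 3 arrays lay between 4.34 and 4.38, and without it the average PyMT log2 difference was −0.06. For Col8a1, replicate 2 of MMTV-Cre was at 8.94 while the others lay between 6.18 and 6.65, and without it the average PyMT difference was 0.22. For Col7a1, replicate 2 of PyMT was at 5.38, below the others at 5.90 to 5.97. For Col17a1, replicate 4 of MMTV-Cre was at 5.31, above the others at 4.36 to 4.45, and replicate 4 of p38α-lox was also the highest of its group at 5.34. For Col2a1, replicate 3 of MMTV-Cre was at 5.35, above the others at 5.28 to 5.29, a gap of less than 0.1 log2 units.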

How the results depend on the processing

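The number of collagen genes called in the average PyMT comparison (6) was 16 with arrayWeights, 2 with the basal marker mean as a covariate, 5 to 11 on leaving out 1 array, and 5 to 8 under the remaining settings. In PyMT minus MMTV-Cre (3) it was 9 with arrayWeights, 1 with the covariate, 2 to 7 on leaving out 1 array, and 3 or 4 otherwise. In p38α-lox PyMT minus p38α-lox (3) it was 7 with arrayWeights, 0 with the covariate, 1 to 4 on leaving out 1 array, and 2 or 3 otherwise. In both p38α-lox comparisons, their average and the interaction it was 0 under every setting run. Over all genes, the average PyMT count of 891 was 2644 with arrayWeights, 175 with the covariate and 554 to 1197 on leaving out 1 array. The PyMT minus MMTV-Cre count of 182 was 1268 with arrayWeights, 17 with the covariate, 55 with only the arrays compared, 111 without the 2 arrays of lowest correlation and 49 to 443 on leaving out 1 array. The p38α-lox PyMT minus p38α-lox count of 112 was 1416 with arrayWeights, 39 with the covariate, 169 with only the arrays compared and 26 to 230 on leaving out 1 array. The p38α-lox counts of 0 over all genes were 8, 5 and 26 with arrayWeights (without PyMT, with PyMT and on average), 1 without the filter in p38α-lox minus MMTV-Cre, and up to 4, 3 and 1 on leaving out 1 array. Col9a1 and Col11a1 kept their direction and their call in the average under all 26 alternatives, with lowest differences of 2.93 and 1.51, both with all probe sets averaged. Col17a1, Col18a1 and Col7a1 lost the call only with the covariate. Estimates that changed sign were not called before or after: with the covariate, the average PyMT difference was −0.29 for Col3a1 (1.56 without it), −0.15 for Col4a2 (0.91 without it) and 0.44 for Col8a1 (−0.09 without it). With all probe sets averaged it was 0.10 for Col4a1 and 0.09 for Col8a1, with arrayWeights 0.11 and 0.14, and without the 2 arrays of lowest correlation 0.03 for Col4a1. On leaving out 1 array it ran from −0.25 to 0.18 for Col4a1, −0.06 to 0.62 for Col6a3 and −0.24 to 0.22 for Col8a1. Col8a1 ran from −0.84 to 0.08 in PyMT minus MMTV-Cre, Col9a2 from −0.07 to 0.49 in p38α-lox PyMT minus PyMT, and Col4a1 was −0.18 in the p38α-lox average with arrayWeights. The cause of these changes was not tested. No paired analysis was possible because the sample titles carry no replicate number that groups share. With 4 arrays a group, PyMT confounded with age and 5 collagen genes below the filter, small differences and those of low genes cannot be resolved.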

Other observations

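Several collagen genes lie next to each other in the genome, and neighbours did not always have like values in the average PyMT comparison. Col9a1 and Col19a1 are neighbours in RefSeq (GRCm38.p6), with log2 differences of 3.82 and −0.02, and Col4a1 and Col4a2, which are also neighbours, had −0.05 and 0.91. For Col3a1 and Col5a2 the values were 1.56 and 0.70, for Col6a2 and Col6a1 0.50 and 1.35, and for Col4a6 and Col4a5 0.94 and 0.56. Of the 12 collagen genes with over 1 probe set at or above the filter, 5 had probe sets whose PyMT differences differ in sign, namely Col23a1, Col4a1, Col5a1, Col6a4 and Col8a1.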
